A study of Mus musculus with 6 samples.

Results

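Astrocyte genes were examined in the hippocampus of wild-type (WT) and Phf8 knockout (KO) mice. The set is a list of 33 genes known as markers of astrocytes, taken by name with no threshold on the arrays. It was chosen with earlier results of these data known, so its counts describe the set and do not test it. They were found through 77 probe sets that the array's gene table pairs with 1 of these symbols, of 45037 probe sets in all. All 33 genes had a probe set above the filter on low signals, and the brightest one of each lay above the filter level on all 6 arrays. That level is the 40th percentile of an array and does not by itself show that a gene is expressed. They are 33 of the 12903 genes tested.

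Astrocytes take up glutamate and potassium that neurons release, convert glutamate to glutamine, exchange ions and metabolites through gap junctions, and supply neurons with lactate, lipids and antioxidants. In injury they become reactive and raise intermediate filament genes such as Gfap and Vim. In the adult dentate gyrus, radial glia-like stem cells share many astrocyte genes and use Notch signaling, whose target Hes5 is a transcriptional repressor, and Id proteins, which hold back differentiation. Several genes of the set are known in other cells as well: Vim and Id3 in blood vessels and meninges, Apoe in microglia, S100b and Sox9 in ependyma. In tissue pieces such as these, fewer cells of a type and less RNA per cell cannot be told apart.

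The WT group was 3 hippocampus samples of wild type mice and the KO group 3 of Phf8 knockout mice, both 10 weeks old on a C57BL/6 background, with 1 Affymetrix array for each sample. Phf8 is an X-linked histone demethylase gene. The KO allele lacks exons for the core of the demethylase domain, removed by EIIa-Cre, which acts in the early embryo, so that neurons and astrocytes both carry the deletion, and the study used male KO mice and their WT littermates. The methods describe the hippocampi of 3 mice of a genotype as making up a sample, which can be read as 3 mice in each array's sample or as 3 mice in all, and p-values measure only the spread between these samples.

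The arrays were compared as log2 MAS5 signals, on which a difference of 1 is a doubling. Phf8 ran from 9.66 to 9.90 on the WT arrays and from 7.99 to 8.55 in KO (difference -1.51, standard error 0.17, adjusted p = 0.0527 in limma), and whether its probes lie in the deleted exons was not checked. KO replicate 3 was unlike the rest, its array correlating across genes at 0.925 to 0.940 with the others, against 0.976 to 0.987 among the other 5. Its thalamus markers (11 of 13 measured) were at a median of 2.31 relative to WT, compared with 0.19 in KO replicate 1 and 0.31 in KO replicate 2, so the difference of each astrocyte gene is given with and without it.

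No astrocyte gene passed an adjusted p of 0.05 in limma over all genes, where 8 genes (0.062% of those tested) did. At an unadjusted p under 0.05 there were 6 astrocyte genes, 5 higher and 1 lower in KO, which is 18.2% of the set against 7.48% of all genes (4.69% higher and 2.79% lower). The higher ones were Hes5, Fabp7, Id3, Slc7a10 and Mfge8, and the lower one was Htra1. Of the 33 genes, 23 (69.7%) had a difference above 0, as did 51.9% of all genes, and their median difference was 0.10 against 0.01 over all genes. The WT and KO arrays did not overlap for 7 of the 33 genes (21.2%, against 16.7% of all genes, 9.56% higher and 7.13% lower), with Hes5, Fabp7, Id3, Id4, Mfge8 and Ntsr2 higher in KO and Htra1 lower. Hes5 and Fabp7 differed by 1.5-fold or more, 6.06% of the set against 6.18% of all genes. The count at an unadjusted p under 0.05 depended on single arrays. It was 12 (6 higher and 6 lower, 36.4% of the set) without KO replicate 3, when 13.9% of all genes had such a p, and 9 (27.3%) without KO replicate 2, against 12.8%. It was 3 (9.09%) without KO replicate 1, against 8.01% of all genes, and 3 without any one WT array, against 3.07% to 4.44%. Without KO replicate 3, Fabp7 and Htra1 passed an adjusted p of 0.05 in limma, as did 53 of all 12903 genes. The median difference of the set was then 0.06, against 0.03 over all genes.

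**Figure D1:**
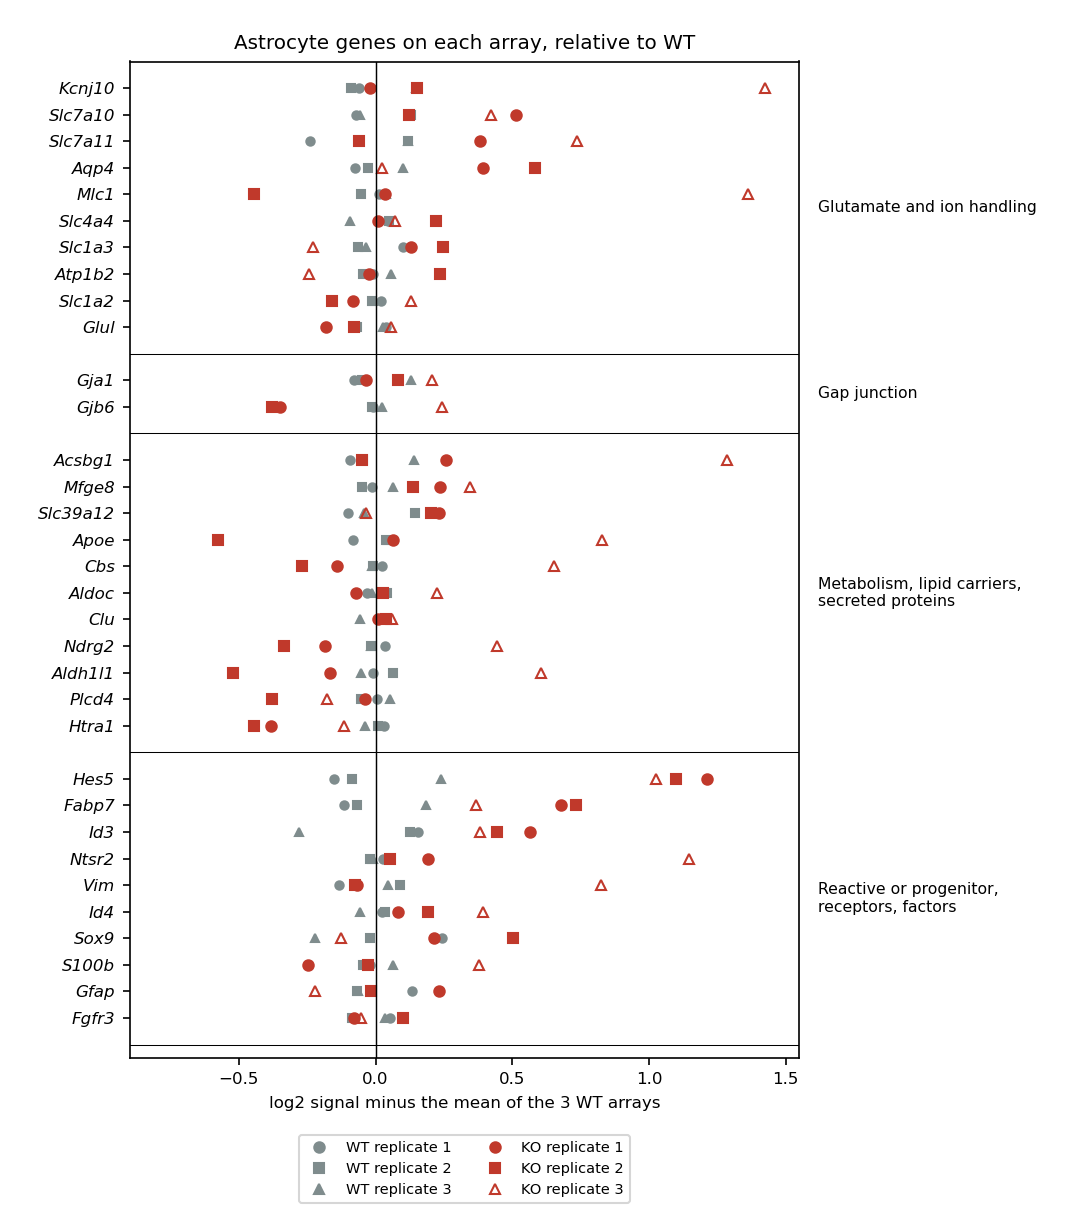
Log2 signal of each of the 33 astrocyte genes (rows, grouped by role) minus its mean over the 3 WT arrays (x axis), with the WT arrays in grey and the KO arrays in red, and an open triangle for KO replicate 3. Hes5, Fabp7 and Id3 lie to the right of all WT points on all 3 KO arrays, Htra1 lies to the left, and KO replicate 3 is the highest array for 19 genes.

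Among the 10 reactive or progenitor genes, counting the receptors and transcription factors placed with them, Hes5, Fabp7 and Id3 were higher in KO at an unadjusted p under 0.05, Ntsr2 and Id4 were apart between the groups without reaching it, and Gfap had a difference near 0. The group's median difference was 0.22 (0.13 without KO replicate 3), 8 of 10 were higher on average. Measured from the WT mean, its median was at 0.20 in KO replicate 1, 0.15 in replicate 2 and 0.38 in replicate 3, and between -0.03 and 0.03 on the WT arrays.

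Hes5, a basic helix-loop-helix repressor that Notch induces, had the smallest p of the set. Its log2 signals were 6.28, 6.34 and 6.67 in WT replicates 1, 2 and 3 and 7.64, 7.53 and 7.45 in KO replicates 1, 2 and 3. All 3 KO arrays thus lay above all WT arrays, and each by a like amount. WT averaged 6.43 ± 0.21 (SD, n = 3) and KO 7.54 ± 0.10 (SD, n = 3), so KO was higher by 1.11 or 2.16-fold (standard error 0.20, 95% interval 0.64 to 1.58, unadjusted p = 0.000719 and adjusted p = 0.285 in limma). The WT signals are dim, little above filter levels of 5.73 to 6.05, and with an offset added before log2 the difference was 1.06. Without KO replicate 3 it was 1.16, and the adjusted p over 15 alternative settings ran from 0.0229 to 0.988. A further Hes5 probe set, kept as well, had a difference of 0.89 (standard error 0.42), with 6.16 to 6.50 in WT and 7.21, 6.37 and 8.06 in KO, where KO replicate 2 overlaps WT (0.47 without KO replicate 3). The brightest Hes5 probe set is of the type whose probes can match other transcripts too.

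Fabp7, the brain fatty acid-binding protein of radial glia and immature astrocytes, was higher in KO too. Its log2 signals were 10.43, 10.48 and 10.73 in WT and 11.23, 11.28 and 10.92 in KO. The groups did not overlap, and the smallest excess was in KO replicate 3. The difference was 0.59 or 1.51-fold (standard error 0.14, unadjusted p = 0.00366, adjusted p = 0.511 in limma), and 0.70 without KO replicate 3 (adjusted p = 0.035). Over its 16 alternative settings the adjusted p ran from 0.0181 to 0.988.

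Id3 and Id4 encode inhibitors of basic helix-loop-helix factors that BMP signals induce. Id3 had log2 signals of 9.95, 9.92 and 9.52 in WT and 10.36, 10.24 and 10.18 in KO, again without overlap. Its difference was 0.46 (standard error 0.15, unadjusted p = 0.0164, adjusted p = 0.589 in limma), and 0.51 without KO replicate 3. Id4 had 12.14, 12.15 and 12.06 in WT and 12.20, 12.30 and 12.51 in KO, higher by 0.22 on average (standard error 0.10, unadjusted p = 0.062) or by 0.14 without KO replicate 3. Its KO arrays lay just above the WT arrays in replicates 1 and 2 and higher in replicate 3. Of its 2 other kept probe sets, one did not overlap either (0.57, or 0.26 without KO replicate 3) and the other did (0.17, or -0.46 without it).

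The upstream sequences of Hes5, Fabp7 and Id3, which had the smallest p among the genes higher in KO, and of Htra1, the gene lower in KO, are shown because these 4 lead the set by p. They are the 250 bases before the annotated start in RefSeq on GRCm38.p6, 5′ to 3′ on the plus strand, and capitals mark TGGGAA or its reverse complement TTCCCA, the core bound by RBPJ, the DNA-binding partner of Notch. RefSeq promoters were matched for 29 of the 33 genes. Hes5 lies at chr4:154960673-154960922, Fabp7 at chr10:57784673-57784922, Id3 at chr4:136143572-136143821 and Htra1 at chr7:130935953-130936202.
Hes5: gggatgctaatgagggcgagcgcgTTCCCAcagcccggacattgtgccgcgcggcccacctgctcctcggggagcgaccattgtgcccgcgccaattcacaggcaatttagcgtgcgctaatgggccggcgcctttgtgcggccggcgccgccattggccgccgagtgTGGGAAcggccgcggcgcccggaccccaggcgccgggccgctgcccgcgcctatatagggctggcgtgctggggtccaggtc
Fabp7: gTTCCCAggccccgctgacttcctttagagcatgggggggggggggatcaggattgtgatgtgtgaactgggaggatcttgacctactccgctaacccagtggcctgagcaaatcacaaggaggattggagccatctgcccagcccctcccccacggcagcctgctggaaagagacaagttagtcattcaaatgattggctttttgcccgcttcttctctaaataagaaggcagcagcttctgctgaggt
Id3: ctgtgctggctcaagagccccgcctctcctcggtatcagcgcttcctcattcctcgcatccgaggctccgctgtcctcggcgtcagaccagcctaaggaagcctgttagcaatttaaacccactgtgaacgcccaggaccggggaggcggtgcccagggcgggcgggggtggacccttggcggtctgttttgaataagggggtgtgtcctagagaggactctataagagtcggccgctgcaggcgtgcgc
Htra1: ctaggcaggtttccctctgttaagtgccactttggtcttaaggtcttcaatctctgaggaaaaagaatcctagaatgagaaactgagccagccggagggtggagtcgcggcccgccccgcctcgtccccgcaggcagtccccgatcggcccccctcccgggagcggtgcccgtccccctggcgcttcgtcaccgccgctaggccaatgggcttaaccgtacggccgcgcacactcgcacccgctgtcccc

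The Hes5 window holds this core at 2 places, starting 226 and 82 bases before the start, the Fabp7 window at 1 place, 249 bases before it, and the windows of Id3 and Htra1 at none. Over all 32851 promoters in the table, searched on both strands in windows of that length, 21.6% hold it at least once and 2.77% at least 2 times, so the single match is common and the double match is not. Of the 37 windows of the astrocyte genes, some genes having several, 14 hold it at least once. They belong to Hes5, Fabp7, Id4, Mfge8 and Ntsr2, apart between the groups and higher in KO, and to genes that overlapped. The latter are Gfap, Aldh1l1, S100b, Aldoc, Slc4a4, Mlc1, Acsbg1 and Slc7a11. Whether the core bears on the level of any of these genes was not tested. The N-box of Hes proteins, CACNAG, is in the Fabp7 window and in 36.7% of all, and a STAT site (TTCNNNGAA, 7.02% of all), an NFI half-site (TTGGCA, 12.3%) and the E-box CACGTG (6.02%) are in none of the 4. CpG dinucleotides number 32 in Hes5, 22 in Htra1, 18 in Id3 and 4 in Fabp7, with a median of 6 over all promoters.

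**Figure D2:**
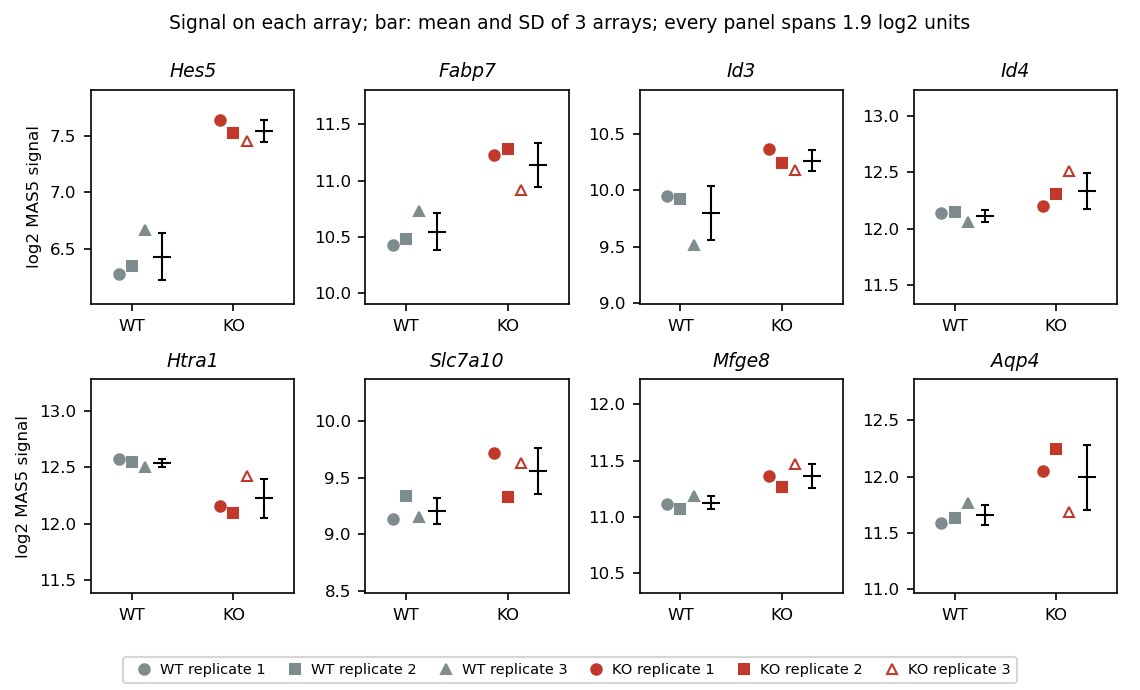
Log2 MAS5 signal (y axis) of 8 astrocyte genes on each array, WT in grey and KO in red with an open triangle for KO replicate 3, with a bar for the group's mean and its SD. The groups are apart for Hes5, Fabp7, Id3, Id4, Htra1 and Mfge8, while for Slc7a10 and Aqp4 1 KO array lies among the WT arrays.

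Gfap, the astrocyte intermediate filament, was nearly alike in both genotypes. Its log2 signals were 10.48, 10.27 and 10.28 in WT and 10.57, 10.33 and 10.12 in KO, a difference of -0.00 with a 95% interval of -0.35 to 0.34 (0.11 without KO replicate 3), and its other 2 probe sets differed by -0.26 and -0.15. Vim, the other filament gene, had 10.37, 10.59 and 10.55 in WT and 10.44, 10.43 and 11.33 in KO (0.23, standard error 0.24). Its excess lay in KO replicate 3 alone, and without that array the difference was -0.07. A dimmer Vim probe set did not overlap between the groups, with 9.71 to 9.86 in WT and 9.91 to 10.56 in KO (0.44, or 0.26 without KO replicate 3). Ntsr2, a neurotensin receptor of astrocytes, had 11.16, 11.11 and 11.12 in WT and 11.32, 11.18 and 12.27 in KO (0.46, standard error 0.27, unadjusted p = 0.122), and without KO replicate 3 its difference was 0.12. The remaining genes of the group overlapped between genotypes. They were Sox9, a transcription factor of glial fate (0.20, or 0.36 without KO replicate 3), the calcium-binding S100b (0.03, or -0.14) and the growth factor receptor Fgfr3 (-0.01, or 0.01). A dimmer Sox9 probe set was apart, with 6.90 to 7.31 in WT and 7.56 to 7.73 in KO (0.50, standard error 0.19, unadjusted p = 0.0303), and a probe set not kept by the filter differed by -1.03 on signals of 1.21 to 5.54.

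Of the 10 genes of glutamate and ion handling, Slc7a10 alone had an unadjusted p under 0.05 with all arrays. Without KO replicate 3 it no longer did, and Aqp4 and Slc1a3 were higher and Slc1a2 and Glul lower by that rule. The median difference of the group was 0.21 (0.11 without KO replicate 3), 7 of 10 were higher on average, and none was apart between the groups. Slc1a2, the transporter GLT-1 that clears most synaptic glutamate, had 14.05, 14.01 and 14.02 in WT and 13.95, 13.87 and 14.16 in KO. The KO arrays lay on both sides of a narrow WT range, and the difference was -0.04 (95% interval -0.23 to 0.15), or -0.12 without KO replicate 3 (unadjusted p = 0.0332). Slc1a3, the transporter GLAST, had 12.35, 12.18 and 12.21 in WT and 12.38, 12.49 and 12.02 in KO (0.05, interval -0.26 to 0.36), or 0.19 without that array (unadjusted p = 0.0354). Of its 5 other probe sets, 3 were apart between the groups and higher in KO, by 0.09, 0.27 (0.14 without KO replicate 3) and 0.36. Glul, glutamine synthetase, had 13.99, 13.89 and 13.98 in WT and 13.78, 13.88 and 14.01 in KO (-0.07, interval -0.24 to 0.11), or -0.13 without KO replicate 3 (unadjusted p = 0.045). A dimmer Glul probe set differed by -0.03, or by -0.58 without KO replicate 3.

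Aqp4, the water channel of astrocyte endfeet, had 11.59, 11.63 and 11.76 in WT and 12.05, 12.24 and 11.68 in KO. KO replicates 1 and 2 were above all WT arrays and replicate 3 was among them. The difference was 0.33 (standard error 0.15, unadjusted p = 0.0586, adjusted p = 0.661 in limma), or 0.49 without KO replicate 3 (adjusted p = 0.0657, within a range of 0.0571 to 0.988 over all alternatives). Its 2 dimmer probe sets lay on opposite sides of WT in KO replicate 3, one at 10.03 against 7.34 to 7.62 in WT and the other at 5.65 against 7.79 to 8.07. Slc7a10, the transporter Asc-1 of small neutral amino acids, had 9.13, 9.34 and 9.15 in WT and 9.72, 9.33 and 9.63 in KO (0.35, standard error 0.15, unadjusted p = 0.0462, and 0.32 without KO replicate 3). KO replicate 2 lay within the WT range. Slc7a11, the cystine-glutamate exchanger, had a difference of 0.35 and Kcnj10, the potassium channel Kir4.1, of 0.52, and without KO replicate 3 these were 0.16 and 0.06. Mlc1, a membrane protein of endfeet, had 0.32, or -0.21 without that array. Slc4a4, the sodium bicarbonate cotransporter, had 0.10 and Atp1b2, a sodium pump subunit, -0.01, and without it 0.11 and 0.10. The other kept Slc4a4 probe sets, all dimmer, had 0.10, -0.00 and -0.07 with all arrays. Without KO replicate 3 these were -0.07, -0.78 and -0.83.

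The gap junction genes differed little on average. Gja1, connexin 43, had log2 signals of 13.17, 13.20 and 13.38 in WT and 13.21, 13.33 and 13.45 in KO (0.08, interval -0.13 to 0.30), or 0.02 without KO replicate 3. Its 5 other kept probe sets gave 0.10, 0.22, 0.01, -1.06 and 0.17, and the negative one had 9.27 to 9.62 in WT and 9.39, 8.09 and 7.74 in KO (unadjusted p = 0.0313), with KO replicate 1 at the WT level. Gjb6, connexin 30, had 11.32, 11.31 and 11.35 in WT and 10.97, 10.95 and 11.57 in KO. KO replicates 1 and 2 were lower than WT by about the same amount and replicate 3 was higher, so that the mean difference was -0.16 with all arrays and -0.37 without KO replicate 3 (adjusted p = 0.1005, range over all alternatives 0.1005 to 0.988).

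Among the 11 genes of metabolism, lipid carriers and secreted proteins, Htra1 was lower and Mfge8 higher in KO, and the rest overlapped. The median difference was 0.06, or -0.21 without KO replicate 3. Htra1, a secreted serine protease, had log2 signals of 12.57, 12.55 and 12.50 in WT and 12.15, 12.09 and 12.42 in KO. All KO arrays were below all WT arrays, replicate 3 by the least. The difference was -0.31 (standard error 0.10, interval -0.56 to -0.07, unadjusted p = 0.0177, adjusted p = 0.59 in limma) and -0.41 without KO replicate 3 (adjusted p = 0.036), and its adjusted p over all alternatives ran from 0.0254 to 0.988. A further Htra1 probe set had 12.13 to 12.32 in WT and 11.89, 11.89 and 12.23 in KO (-0.22, or -0.33 without KO replicate 3), with overlap in replicate 3. Mfge8, a secreted protein that marks dying cells and debris for uptake, had 11.11, 11.07 and 11.19 in WT and 11.36, 11.26 and 11.47 in KO (0.24, standard error 0.10, unadjusted p = 0.0466, and 0.19 without KO replicate 3).

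Acsbg1, a long-chain acyl-CoA synthetase, had 9.08, 9.13 and 9.31 in WT and 9.43, 9.12 and 10.46 in KO (0.50, or 0.11 without KO replicate 3). Apoe and Clu, the lipid-carrying apolipoproteins E and J, had differences of 0.10 and 0.04 (-0.26 and 0.02 without KO replicate 3), and Apoe spread widely in KO, with 12.99, 12.35 and 13.75 against 12.84 to 12.97 in WT. Aldh1l1, the folate enzyme widely used to mark astrocytes, had 9.24, 9.32 and 9.20 in WT and 9.09, 8.73 and 9.86 in KO (-0.03, or -0.34 without KO replicate 3). A dimmer kept Aldh1l1 probe set, near the filter level, had 5.52 to 6.15 in WT and 5.26, 4.06 and 6.06 in KO. It differed by -0.80, or by -1.26 without KO replicate 3. Aldoc, a glycolytic aldolase, had 0.06, or -0.02 without that array. Ndrg2 had -0.03 (-0.26 without it), the zinc transporter Slc39a12 0.13 (0.22), the transsulfuration enzyme Cbs 0.08 (-0.21) and the phospholipase Plcd4 -0.20 (-0.21).

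KO replicates 1 and 2 and KO replicate 3 lay on opposite sides of WT for several genes of mature astrocytes. For Aldh1l1, Slc1a2, Glul, Gjb6, Ndrg2 and Cbs, 6 of 33 (18.2%, against 4.19% of all genes), replicates 1 and 2 were below and replicate 3 above every WT array. The reverse held for Slc1a3 alone (3.03%, against 6.24%). Replicates 1 and 2 alone were both above every WT array for 9 genes (27.3%, against 18.8%) and both below for 7 (21.2%, against 12.8%). KO replicate 3 was the highest of the 6 arrays for 19 of the 33 genes (57.6%, against 32.8% of all genes) and the lowest for Gfap, Slc1a3 and Atp1b2 (9.09%, against 36.4%). Its largest excesses over the WT mean were in Kcnj10 (1.42), Mlc1 (1.36), Acsbg1 (1.29), Ntsr2 (1.15), Apoe (0.83) and Vim (0.83), leaving aside Hes5 (1.02), which was as high in KO replicates 1 and 2.

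Genes known for regional patterns were measured beside these. Agt, Slc6a11 and Sparc, which astrocytes of the diencephalon express more strongly, were at a median of 1.96 relative to WT in KO replicate 3 and of 0.24 and -0.26 in KO replicates 1 and 2. Agt, angiotensinogen, reached 10.01 there against 7.12 to 8.09 in WT. The summed linear signal of the 11 thalamus markers, which the brightest of them carry, was 5589 to 6298 in WT, 7659 and 7657 in KO replicates 1 and 2 and 37600 in KO replicate 3. The 4 measured of 5 telencephalic genes (Emx1, Emx2, Lhx2 and Zbtb20) lay at a median of -0.46 there. The part of thalamic tissue in the astrocyte values of KO replicate 3 was not tested.

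Of the 77 probe sets, 71 were kept, and none passed an adjusted p of 0.05 in limma over the 27408 kept in all (6 of these did, 0.0219%, and the lowest of the 71 was 0.519). At an unadjusted p under 0.05 there were 9 (7 higher and 2 lower), 12.7% against 6.18% of all kept probe sets (3.12% higher and 3.06% lower). The difference was above 0 for 46 of 71, and for 48.1% of all kept ones. The groups were apart for 14 of the 71, 13 higher and 1 lower, 19.7% against 15.2% (7.37% higher and 7.83% lower). Probe sets of 1 gene share a target and are not independent. The count at an unadjusted p under 0.05 was 20 (28.2%) without KO replicate 3, against 12.6% of all kept probe sets, and 15 (21.1%) without KO replicate 2, against 10.6%. Without WT replicate 1, 2 or 3 it was 4, 4 and 3, against 2.50%, 3.18% and 3.41%.

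**Figure D3:**
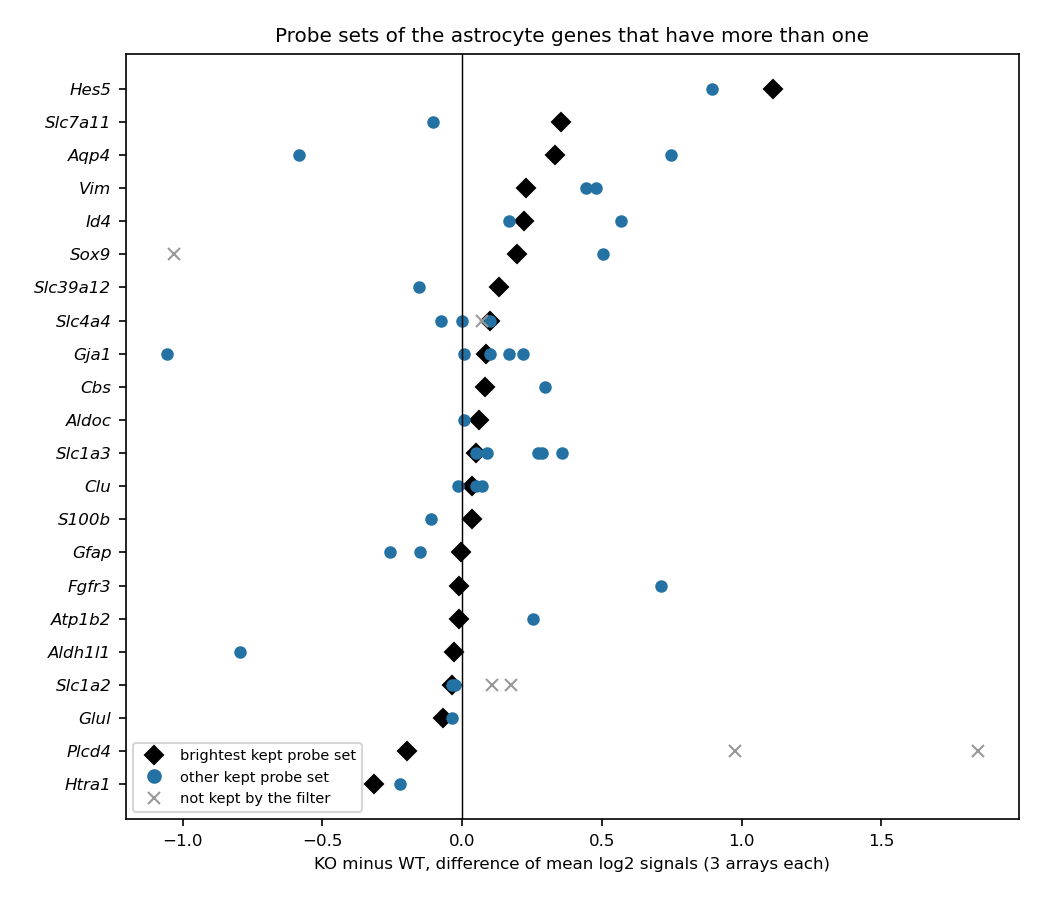
Difference of mean log2 signal, KO minus WT (x axis), for every probe set of the 22 astrocyte genes that have more than 1 (rows), with the brightest kept probe set as a black diamond, other kept ones in blue and those not kept as grey crosses. The Hes5 and Vim probe sets all lie to the right of 0, while those of Aqp4 and Gja1 lie on both sides.

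A further list held other genes known from astrocytes. Of 46 measured of 47 other astrocyte genes, 30 lay above and 16 below their WT mean, the median difference was 0.10 and none was past an adjusted p of 0.05 in limma. At an unadjusted p under 0.05 there were 6 higher and 3 lower, and for this and the further lists the share over all 12903 genes is 4.69% higher and 2.79% lower. Tril, a partner of Toll-like receptors, had 8.93, 8.94 and 8.98 in WT and 9.51, 9.70 and 9.83 in KO (0.74, adjusted p = 0.285). Daam2, a formin-related gene of Wnt signaling, was lower in KO by that rule (-0.54, adjusted p = 0.55), as was Dio2, the deiodinase that makes active thyroid hormone in astrocytes (-0.50, adjusted p = 0.55).

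Of 33 measured of 37 genes of Notch, BMP and cytokine signaling, 17 lay above and 16 below their WT mean, the median difference was 0.01 and none was past an adjusted p of 0.05 in limma. By unadjusted p there were 2 higher and 1 lower. The BMP ligand genes Bmp2 and Bmp7 were higher on all KO arrays. Bmp2 had 6.16, 5.99 and 6.49 in WT and 6.86, 7.36 and 7.35 in KO (0.97, adjusted p = 0.55 in limma), near the filter level, and Bmp7 had 6.77, 7.34 and 7.15 in WT and 8.09, 7.63 and 7.75 in KO (0.73, adjusted p = 0.586). Jak2, a cytokine receptor kinase, differed by -0.26.

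Genes known to rise in reactive astrocytes were taken as 3 lists. No gene of theirs passed an adjusted p of 0.05 in limma. Of 8 measured of 11 pan-reactive genes, 3 were higher and 5 lower (median -0.17), 1 of them higher and 2 lower at an unadjusted p under 0.05. Lcn2, a secreted iron-siderophore binder, had 9.97, 10.49 and 7.52 in WT and 2.78, 4.53 and 5.24 in KO (adjusted p = 0.256 in limma). Its KO signals were below the filter levels, so it was kept through the WT arrays alone, and it is 1 of the 2 lower genes. Osmr, the oncostatin M receptor, differed by -0.60 (-0.37 without KO replicate 3) and the sphingosine phosphate receptor S1pr3 by 0.31. Of 9 measured of 11 neuroinflammatory genes, 3 were higher and 6 lower (median -0.05), with Fbln5, an elastic fibre protein, at 1.03, Serping1 at 0.27 (0.46 without that array) and Srgn at -0.18, and 1 higher by unadjusted p. Of 8 measured of 12 ischemic genes, 4 were higher and 4 lower (median -0.07), with S100a10 at 0.60, Cd14 at -0.49 and Tm4sf1 at 0.21 (0.13 without it), and 1 higher and 1 lower by unadjusted p.

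Lists for the other roles held no gene past an adjusted p of 0.05 in limma either. Of 12 measured of 16 genes of the glutamine cycle, GABA uptake and ion transport, 8 were higher and 4 lower (median 0.12, 2 higher by unadjusted p). The glutamine transporters Slc38a1 and Slc38a3 were at 0.40 (0.23 without KO replicate 3) and 0.46 and the potassium channel gene Kcnj16 at 0.38, each apart between the groups. Of 6 measured of 9 connexins and pannexins, 5 were higher (median 0.30, 0 by unadjusted p), with Gjc1 at 0.42 (0.24 without KO replicate 3), Panx1 at 0.36 and Gjb2 at 0.45 (0.83). Of 14 measured of 15 genes of glucose, lactate and glycogen, 5 were higher and 9 lower (median -0.19, 1 lower by unadjusted p), with the transaminase Gpt2 at -0.44 (-0.29 without KO replicate 3), lactate dehydrogenase Ldha at -0.25 (-0.09) and glycogen phosphorylase Pygb at -0.41 (-0.63). Of 18 measured of 20 cholesterol and fatty acid genes, 10 were higher and 8 lower (median 0.05, 1 higher by unadjusted p), with the lipid regulator Srebf1 at 0.44, Elovl5 at 0.23 and Dbi at 0.18. The 12 genes of serine, cysteine and one-carbon metabolism divided evenly (0 by unadjusted p), with Psat1 at -0.33, Ahcy at 0.26 (0.12 without KO replicate 3) and Shmt1 at 0.75 (0.18).

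**Figure D4:**
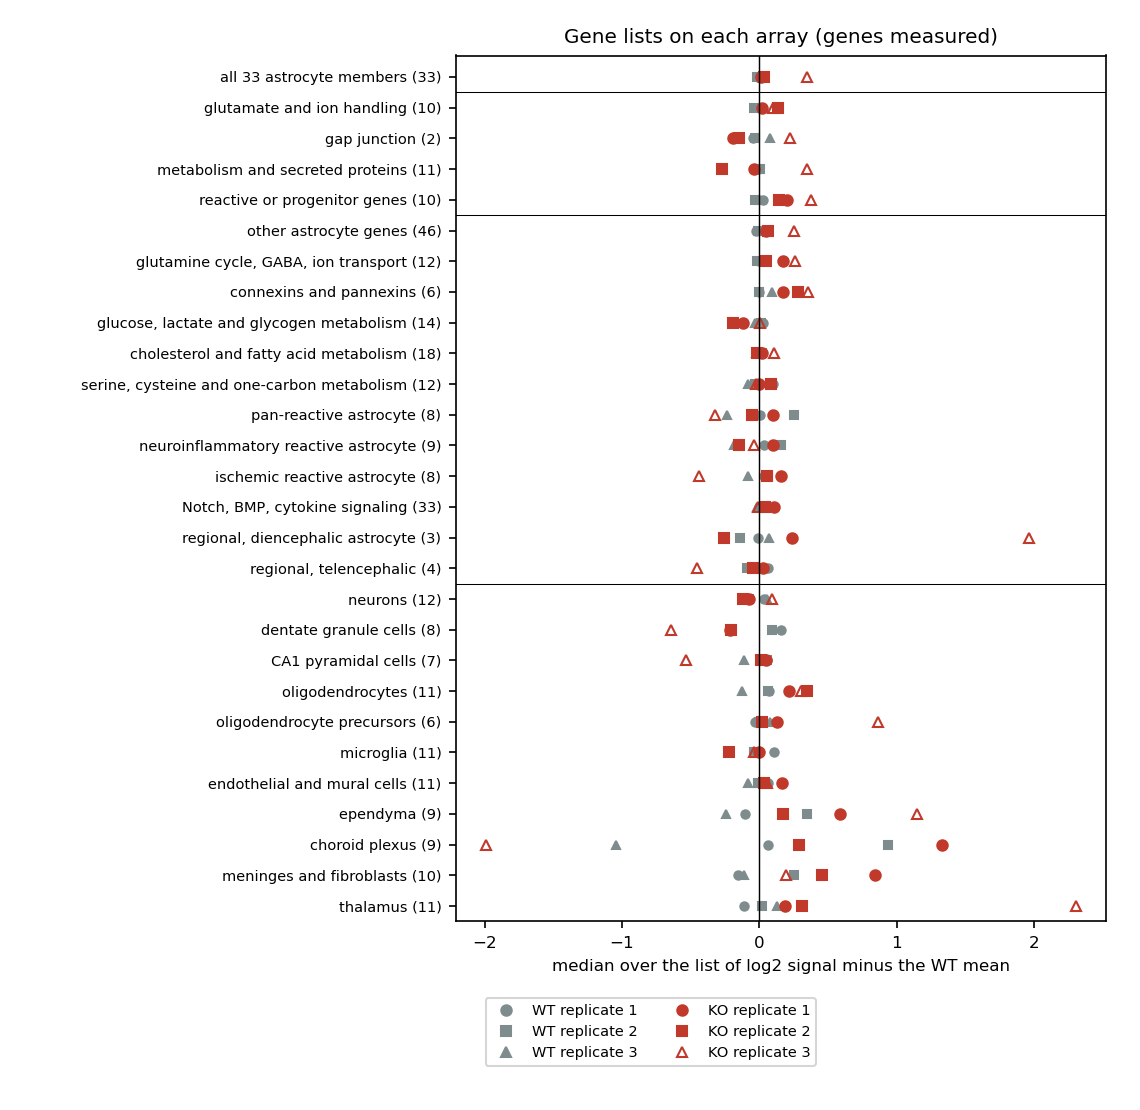
Median over each gene list of the log2 signal minus the WT mean (x axis) on each array, with WT in grey, KO in red, an open triangle for KO replicate 3 and the number of measured genes in parentheses. The astrocyte set lies at 0.35 in KO replicate 3 and near 0 in KO replicates 1 and 2, and that array has the thalamus markers at 2.31.

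Markers of neighbouring cell types that share genes with astrocytes were set beside the higher genes. Ependymal markers (9 of 11 measured) had medians of 0.59, 0.18 and 1.15 in KO replicates 1, 2 and 3, and their summed signal was 1672 to 2687 in WT and 2396 to 4974 in KO. Markers of meninges and fibroblasts (10 of 12 measured) had medians of 0.84, 0.46 and 0.20, with sums of 3297 to 4420 in WT and 3594 to 7921 in KO. The excess of Id3 over the WT mean on the same arrays was 0.57, 0.45 and 0.38, and that of Hes5 was 1.21, 1.10 and 1.02. Endothelial and mural markers (11 of 13 measured) had medians of 0.17, 0.04 and 0.06, with sums of 10013 to 10897 in WT and 10095 to 12052 in KO. Oligodendrocyte precursor markers (6 of 6), of cells that also express Fabp7, had 0.13, 0.02 and 0.87, with sums of 6298 to 6577 in WT and 6644 to 8817 in KO. Microglial markers (11 of 12), for Apoe, had -0.00, -0.22 and -0.04, with sums of 10118 to 10551 in WT and 9595 to 10811 in KO. Medians in KO replicates 1, 2 and 3 were 0.22, 0.35 and 0.31 for oligodendrocytes (11 of 12) and -0.08, -0.12 and 0.09 for neurons (12 of 12). On the same arrays they were -0.21, -0.21 and -0.64 for dentate granule cells (8 of 8) and 0.05, 0.01 and -0.54 for CA1 pyramidal cells (7 of 8). For choroid plexus (9 of 10) they were 1.33, 0.29 and -1.99. The WT arrays varied too. In WT replicates 1, 2 and 3 the medians were 0.07, 0.93 and -1.04 for choroid plexus and -0.11, 0.35 and -0.25 for ependyma. They were -0.15, 0.25 and -0.11 for meninges and fibroblasts, 0.16, 0.09 and -0.20 for dentate granule cells and 0.07, 0.06 and -0.13 for oligodendrocytes. A marker counts as measured only if it was above the filter on 3 or more arrays, so low ones are left out. The part of these cells in the values of the astrocyte genes was not tested.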

How the data were processed

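Hippocampal RNA of 3 WT and 3 Phf8 KO samples was hybridised to Affymetrix arrays after 3′ amplification and biotin labelling. The authors deposited log2 MAS5 signals, scaled by array. MAS5 and affy are the tools in the submitters' processing notes (no versions), and the study's methods add GeneSpring and removal of Absent calls. Detection calls were not analysed here. After undoing the log, the mean of each array, with 2% trimmed at each end, is between 497.5 and 498.2.

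The filter kept probe sets (27408 of 45037) whose signal exceeded the 40th percentile on 3 or more of the 6 arrays. MAS5 levels of different probe sets are not comparable, so genes are compared by differences within a probe set. Summed linear signals of marker lists are given only to set arrays side by side, and the brightest probe sets carry them. The gene table names 1 gene for 34945 probe sets, several for 932 and none for 9160, which are unnamed here. All 33 symbols are current in RefSeq. A gene's brightest kept probe set stood for it. The KO against WT difference came from limma 3.58.1 under R 4.3.3 (lmFit, then eBayes with a mean-dependent variance), with p adjusted by Benjamini-Hochberg over all 12903 genes or 27408 probe sets. The fit was tested on simulated data. Precision is limited by having 3 arrays a group.

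The members and gene lists were chosen with earlier results of these data known, so no list was tested, and counts are read against the share over all genes, given once for the pathway lists. Described in full are the 10 members with the smallest p and Gfap, Vim, Aqp4, Slc1a2, Slc1a3, Glul, Gja1 and Gjb6, and of each pathway list up to 3 genes with the smallest p. Further members are given by their differences, and probe sets and the regional genes were singled out after their values were seen. Promoter motifs were chosen after the values were seen. Alternatives were quantile normalization, median centring, other filters, an offset of 6.00 signal units, a variance not dependent on the mean, array weights, blocking on the replicate number, the mean of a gene's probe sets and leaving out each array.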

Additional observations from a re-analysis of the deposited data

How the results depend on the processing

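No member passed an adjusted p of 0.05 in limma except Fabp7 and Htra1 without KO replicate 3 (53 genes passed over all genes), and Fabp7, Htra1 and Hes5 with array weights estimated gene by gene (115 genes passed). Those weights were chosen after seeing the data, because the default estimate did not converge, giving KO replicate 1 a weight of 18.05 and KO replicate 3 one of 0.0951. Members at an unadjusted p under 0.05 were then 11 (33.3%, against 16.3% of all genes) and member probe sets 21 (29.6%, against 17.8%). The number of genes past an adjusted p of 0.05 was 0 with a variance not dependent on the mean (limma, 980 at an unadjusted p under 0.05) and ran from 0 to 53 when single arrays were left out. With that variance 5 member probe sets (7.04%, against 6.37%) had an unadjusted p under 0.05. After median centring 3 members did (9.09%, against 4.57% of all genes). Without single arrays there were 3 to 12 members, as the share of all genes ran from 3.07% to 13.9%, and 3 to 20 probe sets, against 2.50% to 12.6%. With the replicate number as a block 4 genes passed, and 4 members (12.1%, against 6.74%) had an unadjusted p under 0.05. Deviations of same-numbered arrays correlated at -0.04, 0.07 and 0.13, and those of differently numbered arrays at -0.16 to 0.20. With 3 arrays a group, these values cannot tell whether the number pairs the samples. The median difference of the set stayed between 0.02 and 0.15 in all settings, while that of all genes ran from -0.02 to 0.03. With array weights the median of the set was 0.018, below the 0.024 of all genes.

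Of the 33 members, 18 kept their direction in every setting that tested them, among them Hes5 (at most 1.23), Fabp7 (0.52 to 0.70), Id3 (0.32 to 0.54) and Htra1 (-0.41 to -0.25). Hes5 was not tested under the filter at the 60th percentile. The 15 others turned in 35 of 527 values, all uncalled, and the cause was not tested. With array weights these were Gfap (0.14), Vim (-0.0047), S100b (-0.17), Aldoc (-0.036), Atp1b2 (0.018), Apoe (-0.0054) and Cbs (-0.13). With the mean of probe sets they were Gja1 (-0.080), S100b (-0.040), Fgfr3 (0.35), Atp1b2 (0.12) and Slc39a12 (-0.012), and with quantile normalization Slc1a2 (0.025). Leaving out single arrays gave ranges of -0.12 to 0.11 for Gfap, -0.072 to 0.38 for Vim, -0.34 to 0.22 for Aldh1l1, -0.12 to 0.024 for Slc1a2, -0.050 to 0.19 for Slc1a3, -0.14 to 0.17 for S100b, -0.023 to 0.13 for Aldoc, -0.067 to 0.023 for Fgfr3, -0.13 to 0.10 for Atp1b2, -0.26 to 0.45 for Apoe, -0.21 to 0.70 for Mlc1, -0.26 to 0.13 for Ndrg2 and -0.21 to 0.26 for Cbs.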
